A study of Mus musculus with 188 samples.

Results

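The AXB and BXA recombinant inbred strains of mice, whose parents are A/J and C57BL/6J, divided into 2 groups by the aortic level of 1 of the 3 probe sets named for Uqcr10, the one with the plain suffix _at. The members were chosen by this measured level alone: strains with a mean above 8 on the log2 scale of that probe set are called high strains here, and strains with a mean below 6 low strains. Of the 28 AXB and BXA strains (59 arrays), 10 were high (20 arrays; 4 AXB and 6 BXA strains) and 17 were low (36 arrays; 11 AXB and 6 BXA strains), while BXA16/PgnJ, with 3 arrays, lay between and was left out. The high strains were AXB2/PgnJ, AXB15/PgnJ, AXB19a/PgnJ, AXB23/PgnJ, BXA2/PgnJ, BXA8/PgnJ, BXA11/PgnJ, BXA12/PgnJ, BXA13/PgnJ and BXA25/PgnJ. The whole series held 188 arrays of 94 strains. All mice were males aged 16 weeks, labelled wild-type, kept on chow and given no treatment, and total RNA from the aorta was hybridised to Affymetrix HT_MG-430A arrays. Every strain had at least 2 arrays in the split, except BXA1/PgnJ with 1. Each strain's mean over its arrays was taken as 1 value, because arrays of a strain share its genome. Nothing in the labels ties each array to an animal of its own, and replicate numbers were given here in the order of the arrays and serve only as names.

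Uqcr10 encodes a small nuclear-encoded subunit of complex III, the cytochrome bc1 complex, which passes electrons from coenzyme Q to cytochrome c in the inner mitochondrial membrane and pumps protons as it does so. In a recombinant inbred strain every stretch of the genome has become fixed for the allele of a single parent, and genes close together on a chromosome are mostly inherited from the same one. An expression array reads a transcript through short probes, and the name of a probe set ending in _x_at marks probes that can match more than one transcript, while _a_at marks probes shared by variants of a gene.

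The RefSeq windows of Uqcr10 and Zmat5 are shown because these genes start head to head on opposite strands of chromosome 11, with 312 bases between their starts, and Zmat5 is the nearest measured gene after Uqcr10. Each window runs from 250 bases before to 50 bases after the start, 5′ to 3′ on the gene's own strand, in build GRCm38.p6, an assembly of C57BL/6J, the parent on the high side. The window of Uqcr10 is chr11:4704295-4704594 (minus strand) and that of Zmat5 is chr11:4704406-4704705 (plus strand), so that 189 bases are in both. Capitals mark matches of the motif ACANNTCCC (GGGANNTGT on the other strand), a core of the ZNF143 (Staf) type.
Uqcr10: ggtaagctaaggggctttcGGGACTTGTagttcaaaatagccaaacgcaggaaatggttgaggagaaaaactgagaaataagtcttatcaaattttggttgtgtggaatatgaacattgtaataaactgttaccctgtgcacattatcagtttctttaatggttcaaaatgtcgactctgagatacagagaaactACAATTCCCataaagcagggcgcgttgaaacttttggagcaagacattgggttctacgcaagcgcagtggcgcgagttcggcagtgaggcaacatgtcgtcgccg
Zmat5: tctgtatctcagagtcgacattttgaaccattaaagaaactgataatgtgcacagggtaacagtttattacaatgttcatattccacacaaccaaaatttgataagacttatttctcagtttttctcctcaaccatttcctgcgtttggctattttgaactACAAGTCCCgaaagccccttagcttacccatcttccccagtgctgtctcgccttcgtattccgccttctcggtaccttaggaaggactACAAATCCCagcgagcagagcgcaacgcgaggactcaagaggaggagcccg
Each window held 2 matches, of which 1 was the same stretch read from either side. Of 32851 RefSeq windows of this length, 2063 (6.28%) held the motif. The NRF1 core GCGCANGCG (CGCNTGCGC on the other strand), was in neither window and in 2053 (6.25%) of all windows. A match is only a match of letters. The sequences of the array's probes were not used here.

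The _at probe set of Uqcr10 defined the groups, so its values are a description. The 10 high strains lay from 8.24 (AXB19a/PgnJ) to 9.54 (AXB15/PgnJ) with a median of 9.08, and the 17 low strains from 3.60 (BXA7/PgnJ) to 5.25 (AXB6/PgnJ) with a median of 4.34. The group means were 9.08 ± 0.38 (SD, n = 10) and 4.29 ± 0.37 (SD, n = 17), a difference of 4.79, with a gap of 2.99 between the nearest strains of the groups. AXB19a/PgnJ was the member just inside the upper threshold, AXB6/PgnJ the member just inside the lower one, and BXA16/PgnJ, at 7.57, was the only strain outside both. In the plot of strain values the single arrays of the groups also stay apart, at 7.94 to 9.58 in high strains and 3.34 to 5.39 in low strains. In a whole tissue, fewer cells of a type and less RNA per cell cannot be told apart, and the signal of a probe set need not follow the level of the whole transcript. The _a_at probe set of the same gene, described below, differed between the groups by 0.01.

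**Figure D1:**
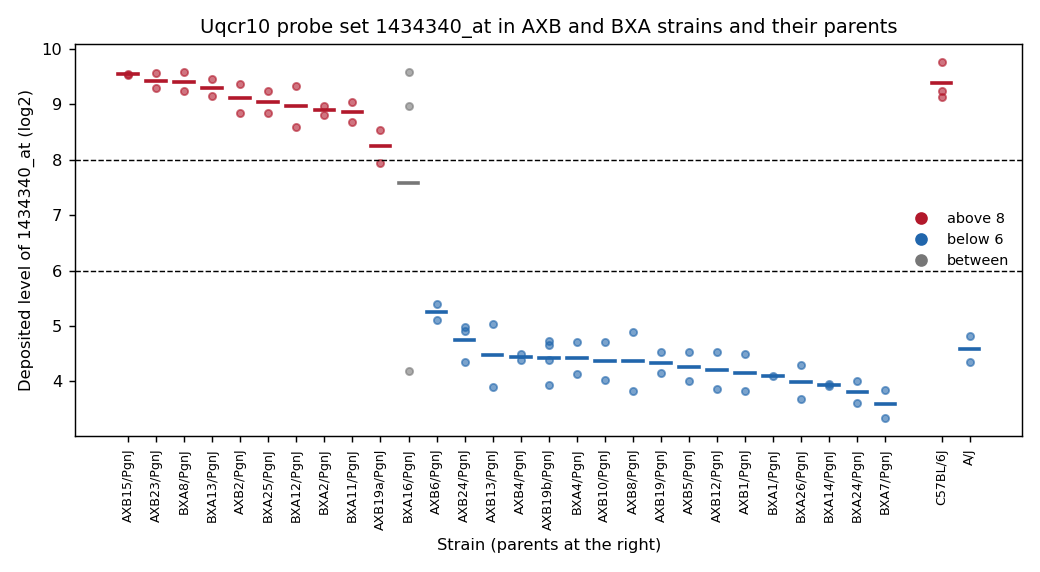
Deposited log2 level of the _at probe set of Uqcr10 (vertical axis) in each AXB and BXA strain, ordered by its mean, and in the parents at the right (horizontal axis). Points are arrays, bars are strain means and dashed lines are the thresholds of 8 and 6. The 10 high strains lie at 8.24 to 9.54 and the 17 low strains at 3.60 to 5.25, and the 3 arrays of BXA16/PgnJ lie on both sides.

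The mean of BXA16/PgnJ hid arrays that lay on opposite sides. Its arrays stood at 8.97, 9.57 and 4.18, where the first and second match the high strains and the third the low strains. The labels were checked with 39 probe sets that were called and differed by more than 2 between A/J and C57BL/6J, those of Uqcr10 left out, by counting at how many of them a pair of arrays lay on different sides. Replicate 3 of BXA16/PgnJ differed from replicates 1 and 2 at 18 and 21 of the 39, while replicates 1 and 2 differed from each other at 5. The other 33 pairs of arrays within an AXB or BXA strain differed at 0 to 10 of them (median 4). The library labelled BXA16/PgnJ replicate 3 therefore goes against the other arrays of its strain.

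The lines AXB19/PgnJ, AXB19a/PgnJ and AXB19b/PgnJ share a name and were split by this probe set. AXB19a/PgnJ was high, and the other two were low. By strain means, AXB19a/PgnJ differed from AXB19/PgnJ at 6 and from AXB19b/PgnJ at 7 of the 39 parental probe sets, and AXB19/PgnJ differed from AXB19b/PgnJ at 5. Other pairs of AXB and BXA strains differed at a median of 19 and at no fewer than 5. The AXB19 lines were thus among the most alike pairs at the parental probe sets. At the _at probe set of Uqcr10, AXB19a/PgnJ stood opposite the others. Each line was counted as a strain of its own in the tests, although their values may not be independent.

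The parents, which played no part in the split, differed in the same manner. The A/J arrays averaged 4.59 and the C57BL/6J arrays 9.38 on the _at probe set, a difference of -4.79 (A/J minus C57BL/6J; limma, adjusted p = 3.74e-11; 2 and 3 arrays). In the same fit 144 of 22327 probe sets (0.645%) were called between the parents at a Benjamini-Hochberg adjusted p below 0.05, 60 higher and 84 lower in A/J, and 1991 (8.92%) had an unadjusted p below 0.05. No comparable split was found in the other families. All 28 BXD strains (8.23 to 9.75) and all 10 BXH strains (8.29 to 9.52) lay above 8, as did their other parents DBA/2J (9.26) and C3H/HeJ (8.86). Among the 28 inbred strains 8 lay above 8 (C57BL/6J, CBA/J, DBA/2J, SM/J, LP/J, C3H/HeJ, NZW/LacJ and C57L/J; 8.64 to 9.38), and 20 lay below 6, from 3.47 in RIIIS/J to 4.69 in I/LnJ.

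The other probe sets of Uqcr10 gave different answers. The _a_at probe set, the brightest of the gene, lay at 12.21 to 12.62 in high strains (median 12.47) and at 12.08 to 12.65 in low strains (median 12.44), so the groups overlapped over nearly their whole range. Its difference of high minus low strains was 0.01 (95% interval -0.09 to 0.12; limma, adjusted p = 0.89), and the parents differed by -0.02. The _x_at probe set lay at 9.12 to 10.21 in high strains (median 9.62) and at 4.70 to 6.27 in low strains (median 5.43), with no overlap. Its difference was 4.31 (SE 0.15), and A/J lay 4.31 below C57BL/6J (5.68 and 9.99; limma, adjusted p = 1.04e-12). Both probe sets are named for the same gene as the one that made the split, so the second adds no independent evidence. The groups are therefore called by their probe set and not by the level of Uqcr10, whose brightest probe set did not separate them.

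**Figure D2:**
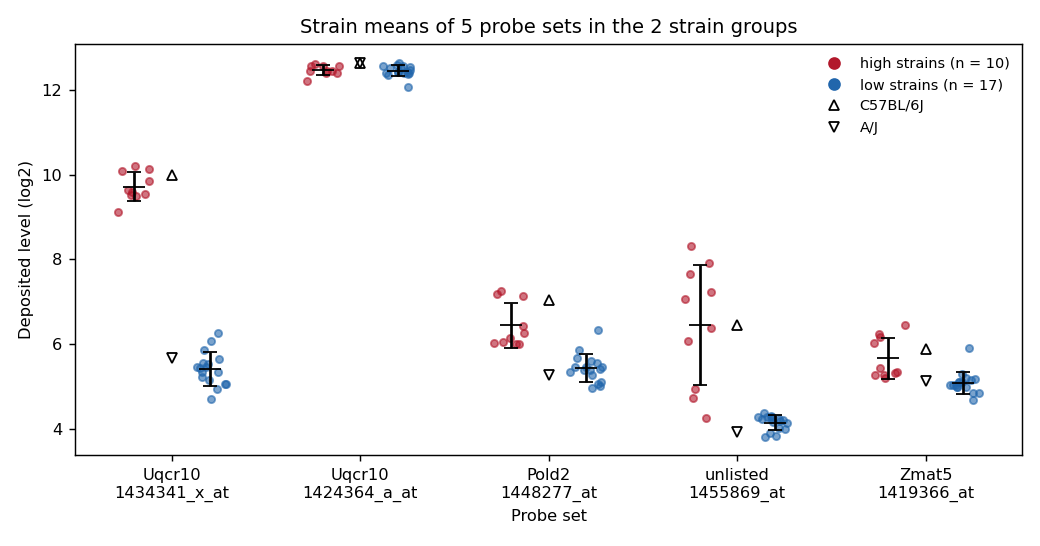
Strain means of 5 probe sets on the deposited log2 scale (vertical axis) for high and low strains (points), with the mean and SD of each group (bars) and the 2 parents (triangles). The _x_at probe set of Uqcr10 separates the groups with no overlap, the ranges of its _a_at probe set, 12.21 to 12.62 and 12.08 to 12.65, overlap almost wholly, and for Pold2, 1455869_at and Zmat5 1, 5 and 3 low strains lie above the lowest high strain.

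Some arrays stood apart from the rest and bear on every comparison that follows. An array was set apart when its median correlation across probe sets with all other arrays of the series was below 0.93, a limit chosen after the data had been seen. This held for 21 arrays of the series, among them 4 of 20 arrays of high strains (replicate 2 of AXB2/PgnJ, AXB23/PgnJ, BXA8/PgnJ and BXA25/PgnJ), 2 of 36 arrays of low strains (replicate 2 of AXB6/PgnJ and BXA7/PgnJ), C57BL/6J replicate 2 and, outside the split, BXA16/PgnJ replicate 2. Replicate 1 of BXA16/PgnJ, which differed from replicate 3 at 18 of the 39 parental probe sets, was not among them. The other arrays of the split had medians of 0.933 to 0.974. Each strain of the split with such an array has another array that was kept, and every strain stayed on its side of the split without them.

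Few other probe sets passed the test between the groups. Of 22326 probe sets 3 (0.0134%) were called between high and low strains, with 10 and 17 strains in limma, and all 3 were higher in high strains. They were the _x_at probe set of Uqcr10, that of Pold2, and 1455869_at, a probe set that the platform's annotation used here does not list. The next smallest adjusted p was 0.24. Without the arrays that stood apart the same 3 were called, and no other.

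The tail of unadjusted p-values was much heavier with those arrays than without them. At an unadjusted p below 0.05 there were 4303 probe sets (19.3%), of which 2013 (9.02%) were higher and 2290 (10.3%) were lower in high strains. Without the 6 arrays of the split that stood apart there were 1320 (5.91%), of which 638 were among the 4303. Leaving out whole strains moved the share as well, to 8.91% without BXA8/PgnJ, 9.85% without AXB23/PgnJ, 11.7% without BXA25/PgnJ, 12.5% without AXB2/PgnJ and 28.9% without AXB6/PgnJ. These are 5 of the strains with an array that stood apart. Shares are given below with all arrays and, where so stated, without those arrays.

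Pold2, which encodes the second subunit of DNA polymerase delta, was the only measured neighbour of Uqcr10 that passed the test. It is the 19th measured gene after Uqcr10 in the gene order of chromosome 11. High strains lay at 5.99 (AXB19a/PgnJ) to 7.24 (AXB23/PgnJ), with a median of 6.20, and low strains at 4.95 (AXB19/PgnJ) to 6.32 (AXB6/PgnJ), with a median of 5.40. AXB6/PgnJ was the only low strain within the range of the high strains. The means were 6.45 ± 0.53 (SD, n = 10) and 5.43 ± 0.33 (SD, n = 17), and the difference was 1.02 (SE 0.16; limma, adjusted p = 0.00581).

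The highest values of Pold2 came from arrays that stood apart. Replicates 1 and 2 gave 6.21 and 8.28 in AXB23/PgnJ, 6.08 and 8.30 in BXA8/PgnJ, 6.27 and 8.02 in AXB2/PgnJ, 5.14 and 6.91 in BXA25/PgnJ, and 5.35 and 7.29 in AXB6/PgnJ. Without them high strains lay at 5.14 to 6.44 and low strains at 4.95 to 5.87, the difference was 0.70 (SE 0.11) and Pold2 was still called (limma, adjusted p = 0.00752). With each array above 1 on a thymocyte or squamous epithelium marker score left out in their place, which removed 27 of 56 arrays and left 8 high and 12 low strains, the difference was 0.98 and was not called (adjusted p = 0.821). In the parents Pold2 lay at 5.26 in A/J and 7.04 in C57BL/6J, a difference of -1.78 that was not called with all arrays (limma, adjusted p = 0.0703) and was -1.43 and called without the arrays that stood apart (adjusted p = 0.00758). Among the inbred strains Pold2 averaged 6.47 in the 8 of the high side and 6.21 in the 20 of the low side, with ranges of 5.66 to 7.33 and 4.95 to 7.77 that overlapped almost wholly; this was not tested.

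Probe set 1455869_at varied far more among high strains than among low ones. High strains lay at 4.25 (BXA25/PgnJ) to 8.31 (BXA13/PgnJ), with a median of 6.72, and low strains at 3.81 (AXB10/PgnJ) to 4.36 (AXB24/PgnJ), with a median of 4.21. The means were 6.45 ± 1.42 (SD, n = 10) and 4.14 ± 0.17 (SD, n = 17), and the difference was 2.31 (SE 0.33; limma, adjusted p = 0.00172). The fit took 1 spread for both groups, while the smaller group varied far more, so this SE and p-value are likely too small. A fit with a spread for each group was not run, so the call rests on that assumption. Of the high strains, AXB2/PgnJ (4.73), BXA11/PgnJ (4.95) and BXA25/PgnJ (4.25) lay below the midpoint of the group means, and no low strain lay above it. The level was therefore low in every low strain and mixed in high strains. A/J lay at 3.92 and C57BL/6J at 6.46, a difference of -2.54 that was not called (limma, adjusted p = 0.148). Outside the family the probe set followed the side of the split only in part. The BXD strains, all of the high side, lay at 5.36 to 11.41 with a median of 8.60. The inbred strains, parents included, had medians of 7.10 on the high side and 4.24 on the low side. However, the BXH strains, all of the high side, spanned 3.79 to 9.69 with a median of 4.10. Inbred strains of the high side fell to 3.93 in LP/J, and those of the low side reached levels such as 9.82 in NOD/ShiLtJ. These differences were not tested.

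The neighbours of Uqcr10 were the 53 nearest measured genes on chromosome 11, 23 before it, where the chromosome begins, and 30 after it, with 81 probe sets. One probe set, that of Pold2, was called. At an unadjusted p below 0.05 there were 22 probe sets of 19 genes (27.2%), beside 19.3% of all probe sets, 18 of them higher and 4 lower in high strains, and the median difference was 0.08. Without the arrays that stood apart there were 16 of 81 (19.8%), of 15 genes, beside 5.91% of all probe sets, 13 of them higher and 3 lower, with a median difference of 0.02. The difference of C57BL/6J minus A/J had the same sign as that of high minus low strains in 18 of the 22 with all arrays and in 8 of the 16 without those that stood apart. The share among neighbours was thus above that of all probe sets in either reading, as a description of linked genes that are not independent of each other.

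Zmat5, a zinc finger protein of the minor spliceosome, starts beside Uqcr10 on the other strand. High strains lay at 5.19 (BXA13/PgnJ) to 6.44 (BXA8/PgnJ), with a median of 5.38, and low strains at 4.68 (AXB1/PgnJ) to 5.91 (AXB6/PgnJ), with a median of 5.04. The difference was 0.58 (SE 0.14) and was not called (limma, adjusted p = 0.241). The highest strains of either group held an array that stood apart, with replicates 1 and 2 at 5.39 and 7.50 in BXA8/PgnJ and at 5.52 and 6.29 in AXB6/PgnJ. Without these arrays the difference was 0.24 (SE 0.07; adjusted p = 0.709). In the parents it was -0.76, A/J minus C57BL/6J (adjusted p = 0.586).

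Sf3a1, a protein of the spliceosome's U2 particle, is the 5th measured gene before Uqcr10, and with Zmat5 it was singled out after its values had been seen. Its _s_at probe set lay at 3.97 to 4.79 in high strains (median 4.30) and at 3.76 to 4.30 in low strains (median 3.95). The difference was 0.35 (SE 0.07; adjusted p = 0.241) and 0.27 (SE 0.06; adjusted p = 0.154) without the arrays that stood apart. It passed when BXA12/PgnJ was left out (0.39; adjusted p = 0.0354). Its other probe set differed by 0.01 (SE 0.10) with all arrays and by -0.12 (SE 0.08) without those that stood apart, and was called in neither reading.

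**Figure D3:**
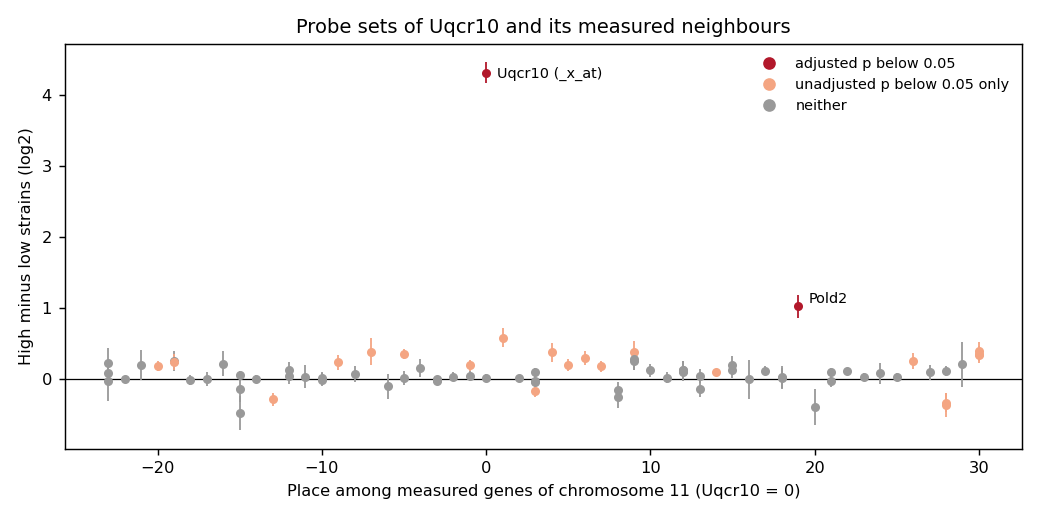
Difference of high minus low strains on the log2 scale (vertical axis, bars are SE) for each probe set of Uqcr10 and its measured neighbours, by place in the gene order of chromosome 11 (horizontal axis, Uqcr10 at 0). The _x_at probe set of Uqcr10 stands at 4.31 and Pold2, at place 19, at 1.02, and the others lie at 0.58 or below.

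Farther along chromosome 11 the share of probe sets at an unadjusted p below 0.05 was read in steps of 30 measured genes. Without the arrays that stood apart it was 14.7% before Uqcr10, 23.4% in the first step after it, 13% in the second and 16% in the third. In the fourth to the sixth step it was 3.92%, 4% and 4.17%, below the 5.91% of all probe sets. Single later steps again rose above 10%, with at most 60 probe sets each. With all arrays the first 3 steps gave 31.9%, 27.8% and 24%, but the sixth gave 39.6% and the fifteenth 35.3%, so no step stood out there. Directions also changed over these 3 steps: 12 probe sets were higher and 3 lower in high strains in the first. In the second step 2 were higher and 13 lower, and in the third 0 and 12.

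Probe sets without a chromosome in the annotation used here, the called 1455869_at among them, were left out of the counts by chromosome. Over the other chromosomes 0 of 16229 probe sets passed the limma test. With all arrays 3107 of them (19.1%) had an unadjusted p below 0.05, and without the arrays that stood apart 932 (5.74%), while the whole of chromosome 11 gave 18.9% and 6.87%. With all arrays the share ran from 16.5% to 21.7% over the chromosomes. Of the 143 probe sets called between the parents, the one that made the split left out, 10 (6.99%) lay on chromosome 11, which held 6.85% of all probe sets tested. Among these, Pttg1 (securin, an inhibitor of sister chromatid separation) had the largest parental difference after Uqcr10, -4.29 on its _s_at probe set, and lay at 10.07 in high and 8.71 in low strains, a difference of 1.36 that was not called (adjusted p = 0.247). Flcn (folliculin, a regulator of nutrient signalling) differed by -1.19 between the parents and by 0.46 between the groups (adjusted p = 0.241). Their places were 122 and 241 measured genes after Uqcr10.

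Complex III, to which the Uqcr10 protein belongs, showed no called difference at any gene's brightest probe set. Of its 9 listed subunits 8 were measured. The core protein Uqcrc1 lay at 11.45 ± 0.19 in high and 11.38 ± 0.18 in low strains, a difference of 0.07 (95% interval -0.08 to 0.22). The other core protein, Uqcrc2, differed by -0.22 (95% interval -0.38 to -0.06; limma, adjusted p = 0.241) and by -0.05 without the arrays that stood apart. Strain means of Uqcrc1 overlapped between the groups, at 11.25 to 11.79 in high and 10.97 to 11.81 in low strains. Those of Uqcrc2 overlapped as well, at 11.08 to 11.79 in high and 11.36 to 11.91 in low strains. These are transcript levels, and no protein was measured.

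The redox subunits and the small subunits lay as close. Cyc1, the cytochrome c1 subunit, lay at 12.30 ± 0.16 in high and 12.20 ± 0.10 in low strains, a difference of 0.09 (95% interval -0.01 to 0.20). Uqcrfs1, the Rieske iron-sulfur protein, differed by -0.08 (95% interval -0.20 to 0.03). Of the small subunits, Uqcrb, which binds near the quinone site, differed by -0.29 (95% interval -0.54 to -0.04; adjusted p = 0.241) and by -0.03 without the arrays that stood apart. Uqcr11 differed by 0.10 (95% interval -0.05 to 0.25) and Uqcrq by 0.08 (95% interval -0.09 to 0.24). The widest of these intervals, that of Uqcrb, reached -0.54, beside a difference of 4.79 at the probe set that made the split.

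Factors that assemble complex III varied somewhat more. Of 6 listed, 4 were measured and 0 were called in limma. Bcs1l, the chaperone that inserts the Rieske protein, lay at 7.25 in high and 6.84 in low strains, a difference of 0.41 (SE 0.17; adjusted p = 0.241), and Uqcc2, an assembly factor for cytochrome b, differed by 0.27 (SE 0.11; adjusted p = 0.241). Ttc19 went the other way, at -0.26 (SE 0.12; limma, adjusted p = 0.243). With all arrays 2 members were higher and 1 lower at an unadjusted p below 0.05 (75%, beside 19.3% of all probe sets). Without the arrays that stood apart no difference in this list exceeded 0.12.

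Across complexes I to V and the complex III assembly factors, 80 of 89 listed genes were measured. By brightest probe set 0 were called in limma, and 3 were higher and 8 lower in high strains at an unadjusted p below 0.05 (13.8%, beside 19.3% of all probe sets). Their median difference was 0.02, and the largest was the 0.41 of Bcs1l. Without the arrays that stood apart 1 of 80 (1.25%) had an unadjusted p below 0.05, beside 5.91%, and the largest difference was 0.23. Over all 130 probe sets of these genes, 1 was called, the _x_at probe set of Uqcr10.

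The largest differences in the other complexes were also small. In complex I, the NADH dehydrogenase, 33 of 38 genes were measured, and Ndufs1 and Ndufs4 differed most (-0.38 and -0.37). In complex II, succinate dehydrogenase, all 4 were measured, with Sdha at -0.33 and Sdhc at 0.10. In complex IV, cytochrome c oxidase, 14 of 15 were measured, with Cox4i1 at 0.09 and Cox4i2 at 0.08, and in complex V, the ATP synthase, 17 of 17, with Atp5pb at -0.33 and Atp5j at -0.22. None of these passed the test, and without the arrays that stood apart no member of complex I or II differed by more than 0.07. In that reading the largest absolute difference was 0.23 in complex IV, above its value with all arrays, and 0.16 in complex V.

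Lists that supply or regulate the chain had 0 members called in limma, but with all arrays more members at an unadjusted p below 0.05 than the 19.3% of all probe sets. Of the electron carriers and coenzyme Q synthesis genes 10 of 16 were measured, of which 3 (30%) were lower at that level, with Etfa, a subunit of the electron transfer flavoprotein, at -0.41 and Coq4 at 0.36. Of the citric acid cycle 11 of 13 were measured, of which 4 (36.4%) were lower, with Sucla2 at -0.39 and Suclg2 at -0.30, both subunits of succinyl-CoA ligase. Of the mitochondrial biogenesis regulators 9 of 10 were measured, of which 3 were higher and 3 lower (66.7%), with the mitochondrial transcription factor Tfb2m at -0.42 and Gabpa, a subunit of the nuclear factor GABP (NRF2), at -0.40. Without the arrays that stood apart 1 of the 30 members of these 3 lists (3.33%) had an unadjusted p below 0.05, beside 5.91%.

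**Figure D4:**
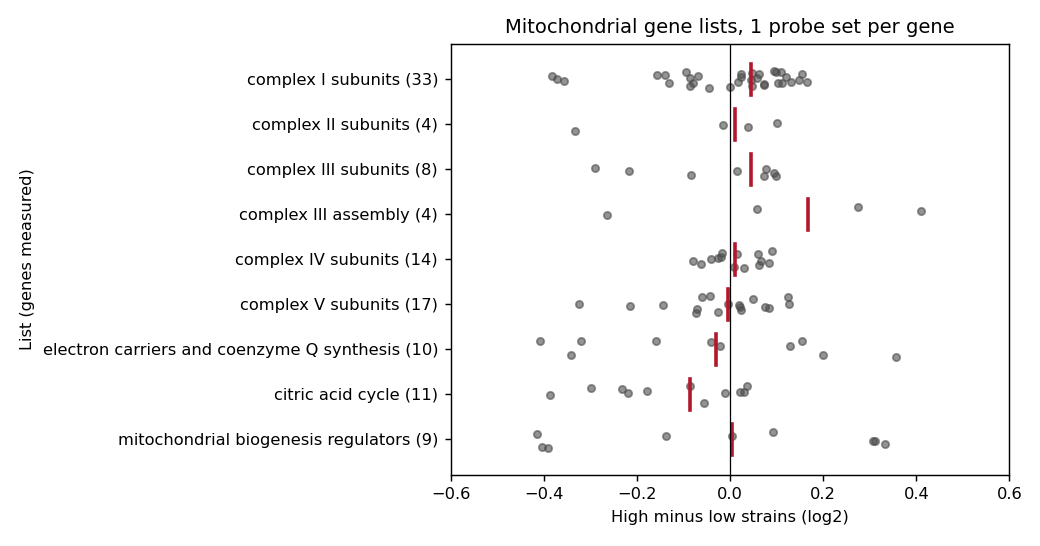
Difference of high minus low strains on the log2 scale (horizontal axis) for each measured gene, by its brightest probe set, in 9 mitochondrial lists (vertical axis, number of genes measured in parentheses). Points are genes and red bars are medians. Every point lies between -0.42 and 0.41, and the medians lie between -0.09 and 0.17.

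Smooth muscle and endothelial markers, which define the aortic wall, were present, with small median differences between the groups. Of the smooth muscle contractile genes 11 of 13 were measured, led by Acta2 at a mean of 12.42, and their median difference was 0.04. The score of a list, the mean of its members' centred log2 levels, ran for smooth muscle from -1.27 (AXB19a/PgnJ) to 0.42 in high and from -0.61 to 0.62 in low strains. Of 12 endothelial genes all were measured, with a median difference of 0.11 and scores of -0.27 to 0.35 in high and -0.48 to 0.35 in low strains. No marker of any cell type list was called, and Slc4a1, the erythroid anion exchanger, had the largest difference past an unadjusted p of 0.05, at 0.79 (SE 0.28; limma, adjusted p = 0.241).

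Markers of tissues outside the wall varied between strains within both groups. Thymocyte scores (9 of 12 markers) ran from -1.16 to 1.56 in high and from -1.34 to 2.19 in low strains, and squamous epithelium scores (11 of 12) from -1.26 to 3.59 and from -1.29 to 1.73. Skeletal muscle scores (12 of 12) ran from -3.56 to 2.38 and from -2.63 to 2.31, and cardiac muscle scores (8 of 9) from -0.74 to 1.21 and from -1.44 to 2.02. The ranges overlapped in all these lists, and no list separated the groups. Median differences were 0.06 for thymocyte, 0.48 for squamous epithelium, 0.68 for skeletal muscle and -0.24 for cardiac muscle markers, beside 0.02 over all probe sets. Without the arrays that stood apart they were 0.12, 0.48, 0.78 and -0.31 in the same order, beside 0.002.

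Of the remaining lists, erythroid markers differed most, with a median of 0.66 (3 of 4 measured, led by Hba-a1 at 12.83), and of 0.31 without the arrays that stood apart. The other medians were 0.03 for brown adipocyte (7 of 8 measured, led by Ucp1 at 12.67), 0.10 for white adipocyte (6 of 8, led by Fabp4 at 12.51), 0.03 for macrophage (9 of 9, led by Lyz2 at 10.17) and -0.20 for adventitial fibroblast markers (7 of 8, led by Dcn at 11.08). The mannose receptor Mrc1 differed by -0.62 and Dcn, the matrix proteoglycan decorin, by -0.34, and neither was called (adjusted p = 0.241 for each). The dimmest members of the lists, such as Rag2 at 3.59 and Krt6a at 3.32, lay near the bottom of the log2 scale.

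**Figure D5:**
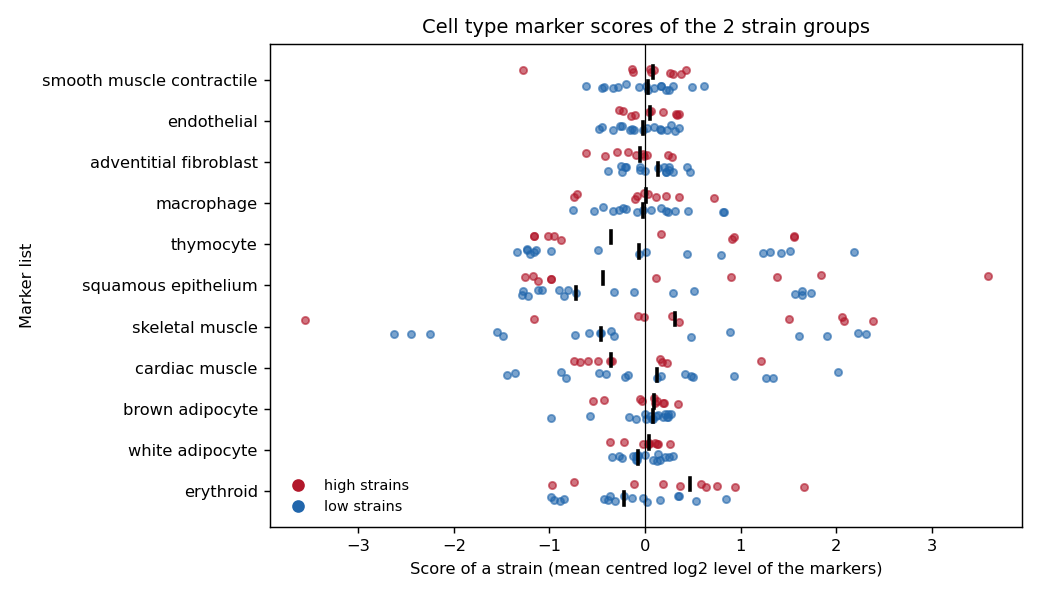
Score of each strain (horizontal axis, mean centred log2 level of a list's markers) in 11 cell type lists (vertical axis), with high and low strains as points and group medians as bars. The groups overlap in every list, and the skeletal muscle score has the widest range in both, -3.56 to 2.38 and -2.63 to 2.31.

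Array titles carry a number, which lay in the upper of the ranges compared for 8 of 20 arrays of high and 25 of 36 arrays of low strains. With the share of such arrays as a covariate the same 3 probe sets were called. The highest array median was 4.83 in high and 4.86 in low strains.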

How the data were processed

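The authors deposited 1 table of log2 expression values for all arrays, read with GCOS and summarised by RMA (background adjustment, quantile normalisation and probe summary), per the submitters' processing notes. The sources used here give neither versions nor a build. Of 22416 probe sets, 89 control probe sets were left out. The platform's annotation gave 1 symbol to 17783 probe sets, several to 284 and did not list 4260, and 17759 matched the GRCm38.p6 gene table, which was used for gene order only. Promoter sequences are RefSeq's of that build.

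Strain means were compared with limma 3.58.1 in R 4.3.3 (lmFit, eBayes; 25 residual degrees of freedom), with Benjamini-Hochberg adjusted p below 0.05 called, over all probe sets except the one that made the split. The parents were contrasted on array values in a fit of all strains (93 residual degrees of freedom) without BXD32/TyJ, whose labels carry an unexplained suffix. P-values measure only the spread between these strains or arrays, which may be partly technical, and array number limits precision. Named were all Uqcr10 probe sets, called probe sets, called neighbours (30 measured genes a side), every complex III member and the 2 largest differences in other mitochondrial lists; other names were chosen after values were seen. Members, lists and tests were chosen with earlier results of these data known. Procedures were tested on simulated data.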

Additional observations from a re-analysis of the deposited data

Results flagged for a closer look

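In 5 of 55 groups of 4 to 10 values, the highest or lowest lay farther from its nearest neighbour than Dixon's 95% critical value allows, where chance gives about 1 in 20. On the _a_at probe set of Uqcr10, AXB2/PgnJ was the lowest high strain, at 12.21, with the next at 12.41. The complex V score of AXB2/PgnJ was -0.25 and the next lowest among high strains was -0.06. AXB19a/PgnJ had the lowest smooth muscle score of the high strains, -1.27, with the next at -0.13. BXA13/PgnJ had their highest cardiac muscle score, 1.21, with the next at 0.23. Among the 4 arrays of AXB19b/PgnJ, replicate 1 stood alone on Uqcrq, at 10.44, with the next at 10.98. AXB2/PgnJ replicate 2 is among the arrays that stood apart.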

How the results depend on the processing

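The count of 3 probe sets called between high and low strains was 2 to 4 in all 41 alternatives, which kept the 3 calls except that Pold2 was lost without arrays high on thymocyte or squamous epithelium markers (score above 1; 2 calls). Respiratory-chain genes called in limma stayed at 0. The count at an unadjusted p below 0.05 (4303) was 1241 without those arrays, 1320 without the arrays that stood apart and 2800 with only probe sets of a mean of at least 5, where fewer were tested, and 1990 to 6458 with each strain left out in turn. The neighbour called (1) became 0 in the first of these, and was 1 to 2 with each strain left out. Between the parents the count of 144 was 228 with tissue scores as covariates, 277 without arrays high on those markers, 10 with only the parental arrays, which leaves few residual degrees of freedom, and 53 to 272 with each parental array left out in turn, 53 without A/J replicate 1, 95 without C57BL/6J replicate 1 and 272 without C57BL/6J replicate 3. Other causes were not tested. In the parents Pold2 passed in 5 of 12 alternatives, with -1.43 to -2.15.

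The planned tests of a split within the BXD and BXH strains, and of its difference between families, were not run, because no strain of either family lay below 6 and at least 3 a group were required. No paired analysis was possible because the labels give no replicate numbers, and those used here only name arrays. The 2 alternatives on BXA16/PgnJ and on the AXB19 lines and those without arrays that stood apart were chosen after seeing the data. Most strains had 2 arrays, so a single array moves a strain mean, and dim probe sets lie near the bottom of the scale, where differences are compressed. Each group of linked genes was read from 27 strains, and arrays cannot tell transcript level from probe binding.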
